A study of Mus musculus with 8 samples.

Results

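The genes described here are 10 mouse genes of the interleukin 6 (IL-6) axis and the acute-phase response: the cytokine genes *Il6*, *Osm*, *Lif* and *Tnf*, the feedback inhibitor *Socs3*, the acute-phase genes *Saa3*, *Hp* and *Lcn2*, and the neutrophil genes *S100a8* and *S100a9*. They were listed by name and not by a measured value, and 10 of 10 were measured among 18820 genes. RNA from the epididymal white adipose tissue of single mice was hybridised to 8 microarrays, 4 from *Sucnr1*-/- mice and 4 from wild-type (WT) mice. All were male mice on a C57BL/6 background, given a semi-synthetic low-fat diet (LFD) for 16 weeks. The labels put the start at an age of 8 to 10 weeks and the end at 24 to 26 weeks, while the study's methods give a wider range of starting ages. *Sucnr1* encodes the receptor for succinate, and the comparison asked how adipose tissue differs without it under a diet that does not cause obesity. In *Sucnr1*-/- mice a cassette with lacZ and a neomycin resistance gene replaced a large part of exon 2 in every cell of the body, and both genotypes were littermates from crosses of heterozygous parents. Each value is a log2 expression level after robust multi-array averaging (RMA), so that a step of 1 is a doubling. Levels are compared between mice for 1 gene and not between genes, whose probes differ. In whole tissue, fewer cells of a type and less RNA per cell cannot be told apart.

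The labels were checked first. *Sucnr1* was at 6.02, 6.05, 5.41 and 7.11 in *Sucnr1*-/- mice, against 8.68, 8.97, 9.38 and 9.78 in WT mice. Every *Sucnr1*-/- mouse was below every WT mouse, by a mean of −3.05 (SE 0.36), with an exact two-sided permutation p = 0.0286, the smallest that 4 against 4 mice allow, and an adjusted p = 0.321 in limma. The sources used here do not give which exons its probes read. Array medians ran from 6.28 to 6.36, and any pair of arrays correlated at 0.981 to 0.993, both over all probe sets. The 11 measured adipocyte markers had a mean level of 12.80 to 12.87 in *Sucnr1*-/- mice and 12.59 to 12.86 in WT mice, whereas 8 epididymis and testis markers averaged 4.79 to 5.50 in *Sucnr1*-/- mice and 4.67 to 5.26 in WT mice. Of the 8, 5 were under 5.42 in every mouse, a level explained below with *Il6*. WT replicate 2 was highest for 4 of the 8, *Sucnr1*-/- replicate 4 for 3 and *Sucnr1*-/- replicate 3 for 1. One marker, picked after its values were seen, was *Prm1*, a protamine gene of sperm precursors. It was at 7.53, 6.09, 6.88 and 11.03 in *Sucnr1*-/- mice, against 6.52, 6.65, 10.23 and 6.59 in WT mice. *Tnp1*, another gene of these cells, was also highest in *Sucnr1*-/- replicate 4, at 6.07, and next in WT replicate 3, at 5.46. These are also the lowest mice for *Il6* and *Socs3*, and the part of testis RNA in the members' values was not tested. Without both mice the difference of *Sucnr1*-/- minus WT was −1.49 for *Il6* and −1.23 for *Socs3*, against −1.23 and −0.96 with all mice, 8 of 10 members had a lower mean and none passed an adjusted p of 0.05 in limma.

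IL-6, oncostatin M (encoded by *Osm*) and leukaemia inhibitory factor (*Lif*) belong to 1 cytokine family and signal through the shared receptor chain gp130, Janus kinases and the transcription factor STAT3. STAT3 induces *Socs3*, whose product binds gp130 and the kinases and ends the signal. IL-6, tumour necrosis factor (*Tnf*) and interleukin 1 also induce acute-phase proteins, mainly in the liver but also in adipose tissue, where adipocytes and macrophages make serum amyloid A3 (*Saa3*), haptoglobin (*Hp*) and lipocalin 2 (*Lcn2*). *S100a8* and *S100a9* encode the 2 chains of calprotectin, an abundant protein of neutrophils.

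The stretch just before the start of transcription can hold motifs of the transcription factors that carry the cytokine signals. Such sequences are shown for 5 members. They are the RefSeq sequences of build GRCm38.p6, 250 bases each, 5′ to 3′ on the strand of the gene, in lower case with each motif match in capitals. For *Il6* the stretch is chr5:30012864-30013113 on the plus strand, for *Socs3* chr11:117969367-117969616 on the minus strand, and for *Saa3* chr7:46715677-46715926 on the minus strand. For *S100a8* it is chr3:90668821-90669070 on the plus strand and for *S100a9* chr3:90695722-90695971 on the minus strand.
Il6: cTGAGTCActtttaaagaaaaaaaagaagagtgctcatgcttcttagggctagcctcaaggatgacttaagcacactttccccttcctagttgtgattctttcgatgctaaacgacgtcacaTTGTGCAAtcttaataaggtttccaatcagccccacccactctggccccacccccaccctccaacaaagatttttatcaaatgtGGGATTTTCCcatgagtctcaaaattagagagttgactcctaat
Socs3: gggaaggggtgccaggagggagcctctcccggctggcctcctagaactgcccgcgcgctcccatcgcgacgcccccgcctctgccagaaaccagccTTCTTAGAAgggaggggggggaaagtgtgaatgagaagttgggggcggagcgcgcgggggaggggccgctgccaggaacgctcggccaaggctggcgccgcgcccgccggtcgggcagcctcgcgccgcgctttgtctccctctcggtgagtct
Saa3: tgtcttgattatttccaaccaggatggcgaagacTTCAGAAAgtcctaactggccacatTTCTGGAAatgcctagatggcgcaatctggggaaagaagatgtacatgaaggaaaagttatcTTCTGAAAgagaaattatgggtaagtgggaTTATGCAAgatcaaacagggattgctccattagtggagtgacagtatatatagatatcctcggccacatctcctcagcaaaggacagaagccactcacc
S100a8: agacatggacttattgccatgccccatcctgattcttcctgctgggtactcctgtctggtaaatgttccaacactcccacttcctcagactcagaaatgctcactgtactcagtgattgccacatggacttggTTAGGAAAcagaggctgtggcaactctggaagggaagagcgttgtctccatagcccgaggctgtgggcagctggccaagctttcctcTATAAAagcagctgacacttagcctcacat
S100a9: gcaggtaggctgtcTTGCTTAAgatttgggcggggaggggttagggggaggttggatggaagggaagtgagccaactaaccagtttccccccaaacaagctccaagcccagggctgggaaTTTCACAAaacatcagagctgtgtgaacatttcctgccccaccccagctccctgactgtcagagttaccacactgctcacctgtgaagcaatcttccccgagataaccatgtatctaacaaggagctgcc
The motifs searched, on both strands, were TTCNNNGAA for STAT, TGA and TCA parted by any 1 base for AP-1, TTNCNNAA for C/EBP, TGACGTCA for the cyclic AMP element, TATAAA for the TATA box, and the NF-kB consensus. No 2 matches overlapped. *Il6* held an AP-1 motif at its far end, a C/EBP motif at −128 to −121 from the start and an NF-kB motif at −44 to −35. *Socs3* held 1 STAT motif at −154 to −146, *Saa3* held 4 C/EBP motifs, *S100a8* held a C/EBP motif and a TATA box, and *S100a9* held 2 C/EBP motifs. Among all 32851 RefSeq promoters, cut to the same length, 7.02% held the STAT motif, 6.75% AP-1, 36.8% C/EBP, 3.90% NF-kB, 12.4% the TATA box and 1.55% the cyclic AMP element. Of the members 8 of 10 were matched to this table, all but *Osm* and *Hp*. Among those matched but not shown, *Lif* held an AP-1 motif, *Lcn2* a C/EBP motif, and *Tnf* C/EBP motifs and a TATA box. A motif match describes letters only.

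Between the genotypes, none of the members passed the test, and all of them varied widely between mice of 1 genotype. The mean was lower in *Sucnr1*-/- mice for 8 of the 10 and higher for *S100a8* and *S100a9*. The median difference of the members was −0.47 on the log2 scale, against 0.01 over all 18820 genes, of which 46.8% had a lower mean in *Sucnr1*-/- mice. In limma, 0 of 10 members passed an adjusted p of 0.05 (0% of all genes) and 0 of 10 passed an unadjusted p of 0.05, which 6.82% of all genes did (652 higher and 632 lower). Centring each array on its median over all probe sets gave 355 higher and 979 lower genes, and centring over the named genes gave 1352 higher and 330 lower. No member had groups without overlap, against 4.24% of all genes. The members' median difference was −0.79 without *Sucnr1*-/- replicate 1 and −0.29 without WT replicate 1.

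**Figure D1:**
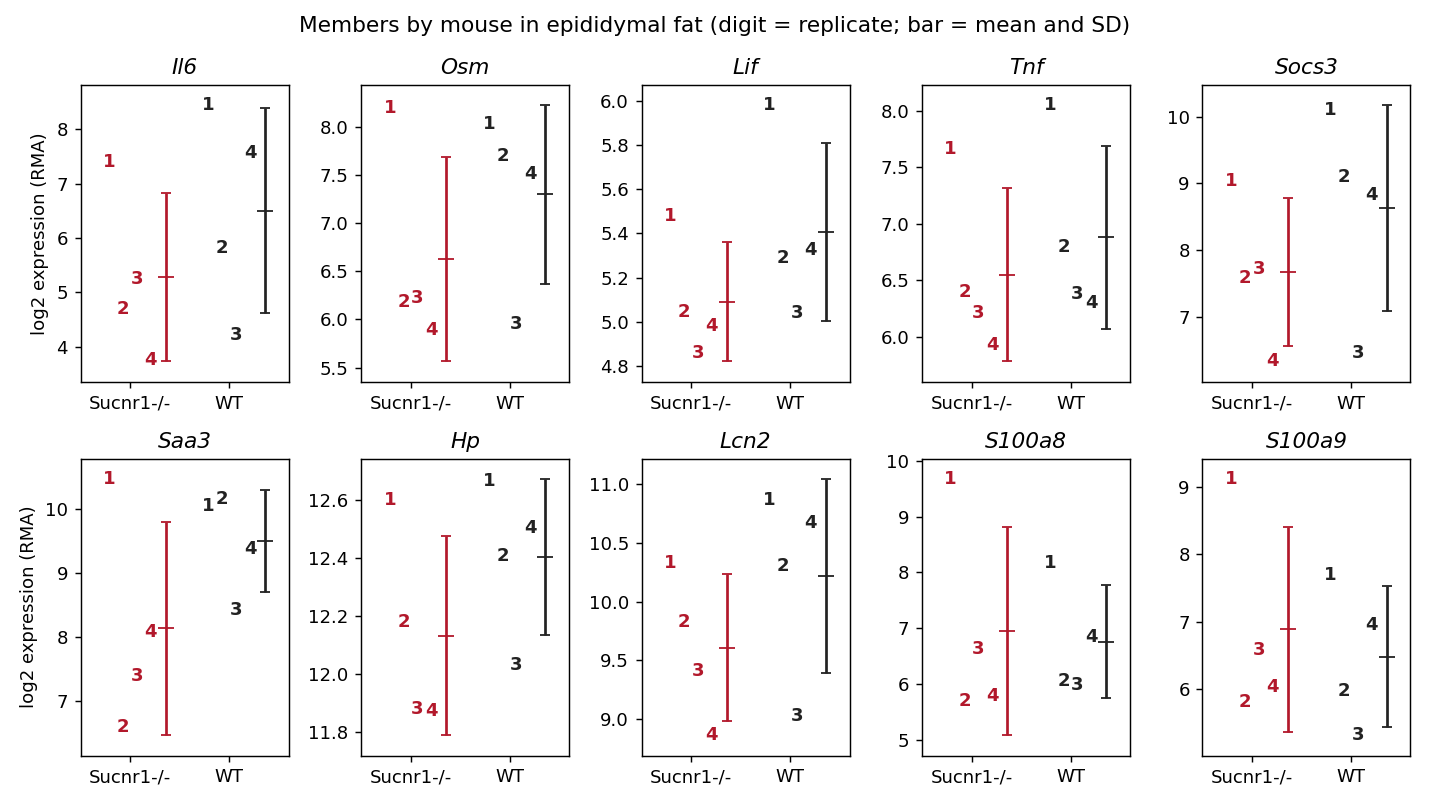
Log2 RMA expression of the 10 members (y axes, 1 scale per gene) in 4 *Sucnr1*-/- mice (red, left) and 4 WT mice (black, right); each digit is 1 mouse with its replicate number, and the bar gives the mean and SD. Replicate 1 lies at the top of each group for every member but *Saa3* in WT mice, where replicate 2 is at 10.16 and replicate 1 at 10.04.

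*Il6*, the gene of the cytokine that names the axis, was at 7.41, 4.70, 5.24 and 3.76 in *Sucnr1*-/- mice, against 8.44, 5.82, 4.21 and 7.56 in WT mice. The highest mouse was WT replicate 1 and the lowest *Sucnr1*-/- replicate 4, and the groups overlapped. *Il6* averaged 5.27 ± 1.55 in *Sucnr1*-/- mice and 6.51 ± 1.88 in WT mice (SD, n = 4 each). The difference was −1.23 (SE 1.01), 95% interval −3.54 to 1.08, with an adjusted p = 0.775 in limma. Without WT replicate 3, itself low in *Il6*, the difference was −1.997, and without WT replicate 1 it was −0.59. The file holds no detection calls: as a yardstick, 990 genes of olfactory receptors, proteins of the nasal epithelium, had a median level of 4.24, and 95% of them lay below 5.42. The 3 lower *Sucnr1*-/- mice and WT replicate 3 were under 5.42 for *Il6*, so that WT replicate 1 was at least 8.09-fold above them with 5.42 as the floor.

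*Osm*, the gene of oncostatin M, a product of macrophages and neutrophils, was at 8.20, 6.18, 6.22 and 5.89 in *Sucnr1*-/- mice, against 8.03, 7.70, 5.95 and 7.51 in WT mice. *Sucnr1*-/- replicate 1 was the highest mouse, whereas the other *Sucnr1*-/- mice lay with WT replicate 3, under the remaining WT mice. The difference was −0.67 (SE 0.59), 95% interval −2.01 to 0.66, with an adjusted p = 0.781 in limma, and it was −1.20 without *Sucnr1*-/- replicate 1 and −0.43 without *Sucnr1*-/- replicate 4.

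*Lif*, whose product acts through gp130 and the LIF receptor, was at 5.48, 5.04, 4.86 and 4.98 in *Sucnr1*-/- mice, against 5.98, 5.29, 5.04 and 5.32 in WT mice. Its mean over all mice, 5.25, was under the level of 5.42 named for the olfactory receptor genes, and its whole range was 1.12. The difference was −0.32 (SE 0.21), 95% interval −0.79 to 0.16, with an adjusted p = 0.747 in limma, and −0.13 without WT replicate 1.

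*Tnf*, the gene of a cytokine made by macrophages that acts beside IL-6, was at 7.66, 6.40, 6.21 and 5.93 in *Sucnr1*-/- mice, against 8.05, 6.79, 6.38 and 6.30 in WT mice. In each genotype replicate 1 stood well above the other three mice. The difference was −0.33 (SE 0.47), 95% interval −1.39 to 0.73, with an adjusted p = 0.860 in limma, and it was −0.70 without *Sucnr1*-/- replicate 1. Without WT replicate 1 its sign turned, to 0.061.

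*Socs3*, the inhibitor that STAT3 induces, was at 9.04, 7.59, 7.71 and 6.33 in *Sucnr1*-/- mice, against 10.11, 9.10, 6.46 and 8.83 in WT mice. WT replicate 1 was highest, and WT replicate 3 and *Sucnr1*-/- replicate 4 were the lowest, as for *Il6*. *Socs3* averaged 7.67 ± 1.11 in *Sucnr1*-/- mice and 8.62 ± 1.55 in WT mice (SD, n = 4 each), a difference of −0.96 (SE 0.79), 95% interval −2.76 to 0.85, with an adjusted p = 0.775 in limma. It was −1.68 without WT replicate 3 and −0.46 without WT replicate 1. A second, dimmer probe set named for *Socs3* read 6.64, 5.95, 6.08 and 5.95 in *Sucnr1*-/- mice, against 7.15, 6.86, 6.05 and 6.30 in WT mice. There too WT replicate 1 was the highest mouse.

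*Saa3*, the serum amyloid A gene of adipose tissue and macrophages, was at 10.46, 6.60, 7.40 and 8.08 in *Sucnr1*-/- mice, against 10.04, 10.16, 8.42 and 9.37 in WT mice. *Sucnr1*-/- replicate 1 had the highest value of all, and the other *Sucnr1*-/- mice lay below every WT mouse. *Saa3* averaged 8.13 ± 1.67 in *Sucnr1*-/- mice and 9.50 ± 0.80 in WT mice (SD, n = 4 each), which is 2.57-fold lower, the widest difference among the members. The difference was −1.36 (SE 0.77), 95% interval −3.11 to 0.39, with an adjusted p = 0.731 in limma and an exact two-sided permutation p = 0.229. It was −2.14 without *Sucnr1*-/- replicate 1 and −0.85 without *Sucnr1*-/- replicate 2.

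*Lcn2*, whose product binds bacterial siderophores, was at 10.33, 9.83, 9.40 and 8.86 in *Sucnr1*-/- mice, against 10.87, 10.31, 9.03 and 10.67 in WT mice. WT replicate 3 lay among the lower *Sucnr1*-/- mice, and the difference was −0.61 (SE 0.43), 95% interval −1.60 to 0.38, with an adjusted p = 0.753 in limma. It was −1.01 without WT replicate 3 and −0.36 without *Sucnr1*-/- replicate 4.

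*Hp*, whose product binds free haemoglobin, was at 12.60, 12.18, 11.88 and 11.87 in *Sucnr1*-/- mice, against 12.67, 12.41, 12.03 and 12.51 in WT mice. It had the narrowest range of the members, 0.80, with the same mice at the top as for *Tnf*. The difference was −0.27 (SE 0.19), 95% interval −0.70 to 0.16, with an adjusted p = 0.752 in limma, −0.43 without *Sucnr1*-/- replicate 1 and −0.18 without WT replicate 1.

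*S100a8* was at 9.67, 5.69, 6.63 and 5.79 in *Sucnr1*-/- mice, against 8.17, 6.05, 5.98 and 6.84 in WT mice. *S100a9* followed, at 9.11, 5.82, 6.59 and 6.03 in *Sucnr1*-/- mice, against 7.69, 5.97, 5.32 and 6.96 in WT mice. *Sucnr1*-/- replicate 1 was the highest mouse for both genes and WT replicate 1 the next. The difference was 0.19 (SE 0.89), 95% interval −1.83 to 2.20, for *S100a8* (adjusted p = 0.963 in limma) and 0.40 (SE 0.77), 95% interval −1.35 to 2.16, for *S100a9* (adjusted p = 0.896). Both signs turned without *Sucnr1*-/- replicate 1, to −0.72 for *S100a8* and −0.34 for *S100a9*. Without WT replicate 1 the differences were 0.66 and 0.81. For *S100a8* alone the sign also turned without WT replicate 2, at −0.049, and without WT replicate 3, at −0.072.

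**Figure D2:**
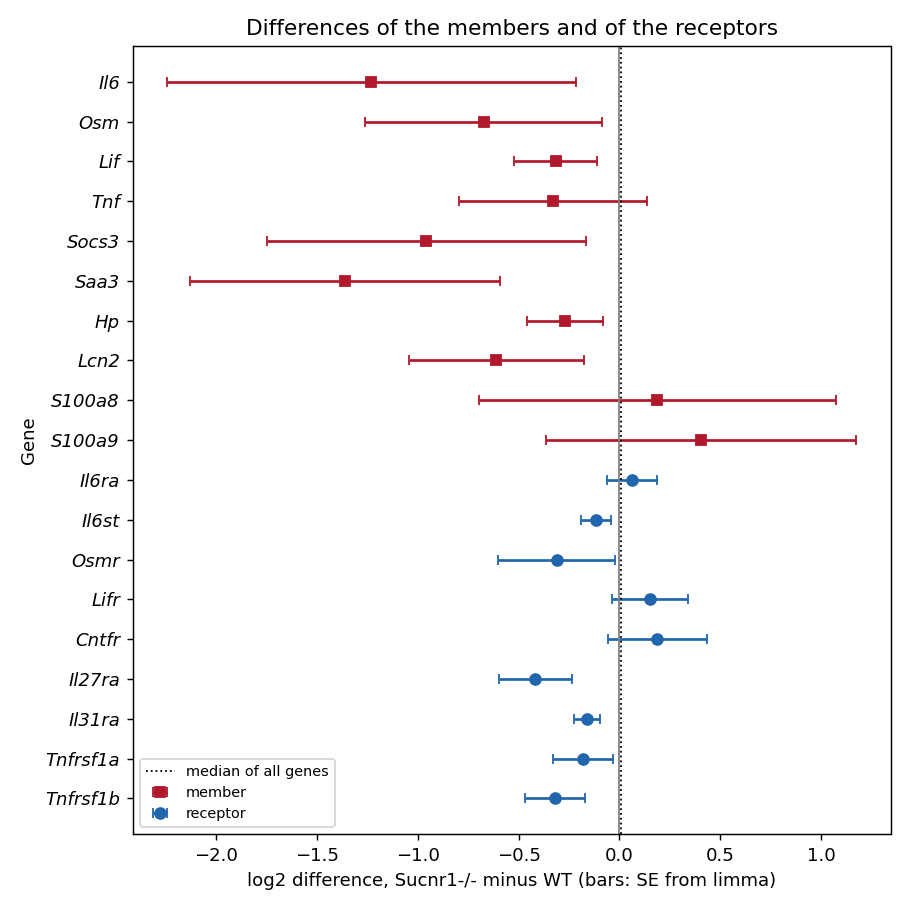
Log2 difference of *Sucnr1*-/- minus WT (x axis, with limma's SE as bars) for the 10 members (red squares) and for the 9 measured receptors of the IL-6 and TNF families (blue circles); the dotted line is the median of all genes. The members run from −1.36 for *Saa3* to 0.40 for *S100a9*, and all but *Lif* and *Hp* have a wider bar than any receptor.

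Neutrophil markers were set beside these genes. Of 17 measured, 8 had a higher and 9 a lower mean in *Sucnr1*-/- mice, with a median difference of −0.02, and 9 of the 17 were highest in *Sucnr1*-/- replicate 1. Of these markers 4 were under the level of 5.42 in every mouse, and without the dimmest 40% of all genes the median difference was −0.15. Their mean level ran from 5.67 to 7.28 in *Sucnr1*-/- mice and from 5.80 to 6.75 in WT mice, and as a score (the mean deviation of the markers from their own means) it was 1.07, −0.48, −0.21 and −0.53 in *Sucnr1*-/- mice, against 0.55, 0.01, −0.41 and 0.00 in WT mice. *Cxcr2*, a chemokine receptor of neutrophils, was at 9.30, 4.62, 5.74 and 4.86 in *Sucnr1*-/- mice, against 7.58, 5.35, 4.76 and 5.80 in WT mice. The same 2 mice were highest for *S100a8*, *S100a9* and *Cxcr2*, a marker picked after its values were seen. Other markers went otherwise. *Elane* and *Prtn3* were lowest in WT replicate 1, at 7.45 and 6.78, and highest in *Sucnr1*-/- replicate 2, at 7.94 and 7.67. Of the 17 markers, 1 passed an unadjusted p of 0.05 in limma, against 6.82% of all genes. It was *Prtn3*, at 0.35 (SE 0.15; adjusted p = 0.719 in limma). *Mpo*, which neutrophil precursors express in the bone marrow, was 1 of the 4 markers under 5.42 in every mouse, at 4.83 to 5.01. Without *Sucnr1*-/- replicate 1 the markers' median difference was −0.54 and 11 of 17 had a lower mean. The part of neutrophils in the values of the members was not tested.

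Over the 8 mice, *S100a8* and *S100a9* had a Pearson's r of 0.973 and a Spearman's rho of 0.881 (exact permutation p = 0.00062 and p = 0.00724, each the same after adjustment over 2 relations). Without the mice farthest from the median of *S100a8*, replicates 1 of both genotypes, r was 0.832 over 6 mice. Within *Sucnr1*-/- mice r was 0.999 and within WT mice it was 0.941, over 4 mice each. The second relation set *Il6* beside a score of 18 immediate early genes, which cells induce within minutes of a stimulus. The score was 0.40, −0.34, −0.18 and −0.41 in *Sucnr1*-/- mice, against 0.68, −0.05, −0.17 and 0.08 in WT mice. Its r with *Il6* was 0.924 and rho 0.905 (exact permutation p = 0.000446 and p = 0.00456, adjusted to 0.00062 and 0.00724). Without the same 2 mice r was 0.893, and it was 0.983 within *Sucnr1*-/- mice and 0.858 within WT mice. The score was chosen because earlier results of these data named it as differing between mice, so its p-values are no independent test. Many genes had an r with *Il6* of this size: *Socs3*, at 0.929, ranked 71 among 11426 other genes, and *Osm*, at 0.910, ranked 123. Of the 18 genes, 15 had a lower mean in *Sucnr1*-/- mice, with a median difference of −0.24. *Nr4a1*, a nuclear receptor gene, differed by −0.74 (SE 0.25) and *Jun*, of which AP-1 is built, by 0.28 (SE 0.08), and neither passed after adjustment. The part of the immediate early response in the difference of *Il6* was not tested.

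**Figure D3:**
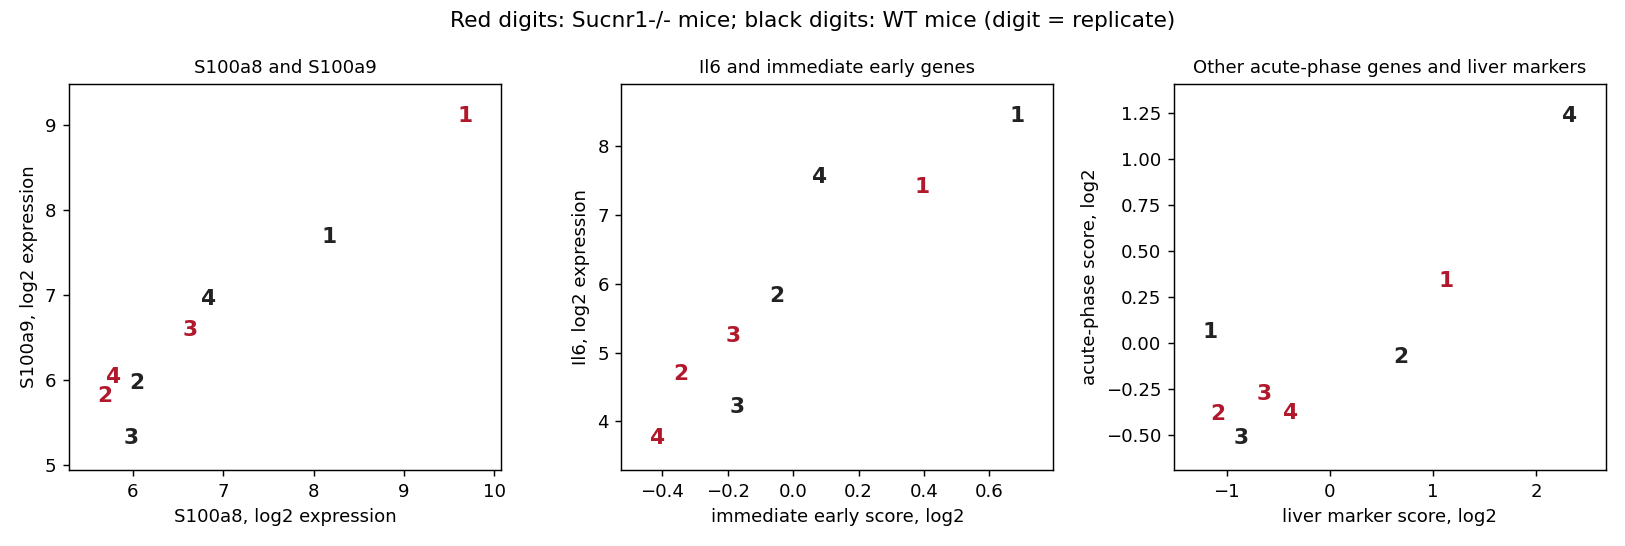
Each digit is 1 mouse with its replicate number (red, 4 *Sucnr1*-/- mice; black, 4 WT mice): *S100a9* against *S100a8* in log2 expression (left), *Il6* in log2 expression against the immediate early score (middle), and the score of 29 other acute-phase genes against that of 5 liver markers (right); a score is a mean log2 deviation. *Sucnr1*-/- replicate 1 lies at the top right on the left, WT replicate 1 in the middle, and WT replicate 4, with scores of 1.23 and 2.32, on the right.

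The members were set against the spread of all genes within a genotype. Their median within-genotype SD was 1.15, against 0.135 over all genes, and their median range over the 8 mice was 3.04, against 0.414. All 10 members were at or above the 90th percentile of genes in this SD and 8 at or above the 95th. *Il6* was at percentile 99.9, *S100a8* at 99.8 and *Socs3*, *Saa3* and *S100a9* at 99.6, whereas *Hp*, at 90.6, and *Lif*, at 92.5, were the lowest. A wide spread was not particular to the members, whose median percentile was 99.4. Of the lists described below, other acute-phase genes had a median percentile of 97.1, genes around IL-6 induction 96.5 and STAT3-induced genes 94.8. All 7 B cell and all 7 T cell markers were at or above the 90th percentile. The other S100 genes, at 33.8, and adipocyte markers, at 22.2, were lower.

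**Figure D4:**
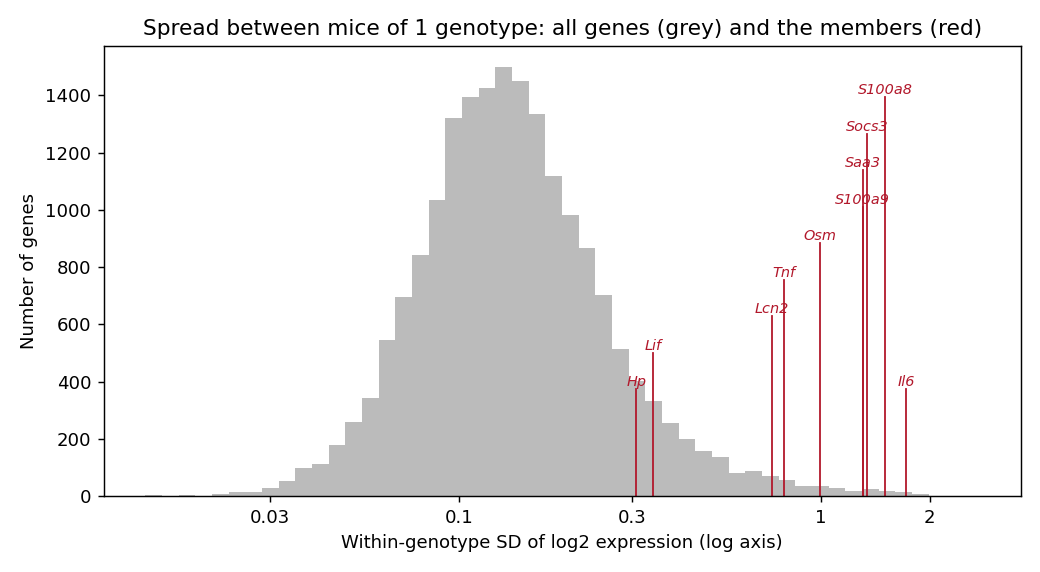
Within-genotype SD of log2 expression (x axis, log scale) for 18820 genes (grey, number of genes on the y axis), with a red line for each of the 10 members; the height of a red line has no meaning. The members lie in the right tail of the genes, with *Hp* nearest the bulk and *Il6* farthest from it.

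The mice differed in the same way for most members. In *Sucnr1*-/- mice the mean deviation from each gene's mean was 1.25 for replicate 1, −0.75 for replicate 2, −0.54 for replicate 3 and −0.998 for replicate 4. In WT mice it was 1.25 for replicate 1, 0.21 for replicate 2, −0.87 for replicate 3 and 0.44 for replicate 4. Replicate 1 of both genotypes was above the gene's mean for 10 of 10 members, and between them these 2 mice held the highest value of every member. Replicates 2, 3 and 4 of *Sucnr1*-/- mice and replicate 3 of WT mice were below the mean for every member. WT replicate 2 was above the mean for 7 members and WT replicate 4 for 8.

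**Figure D5:**
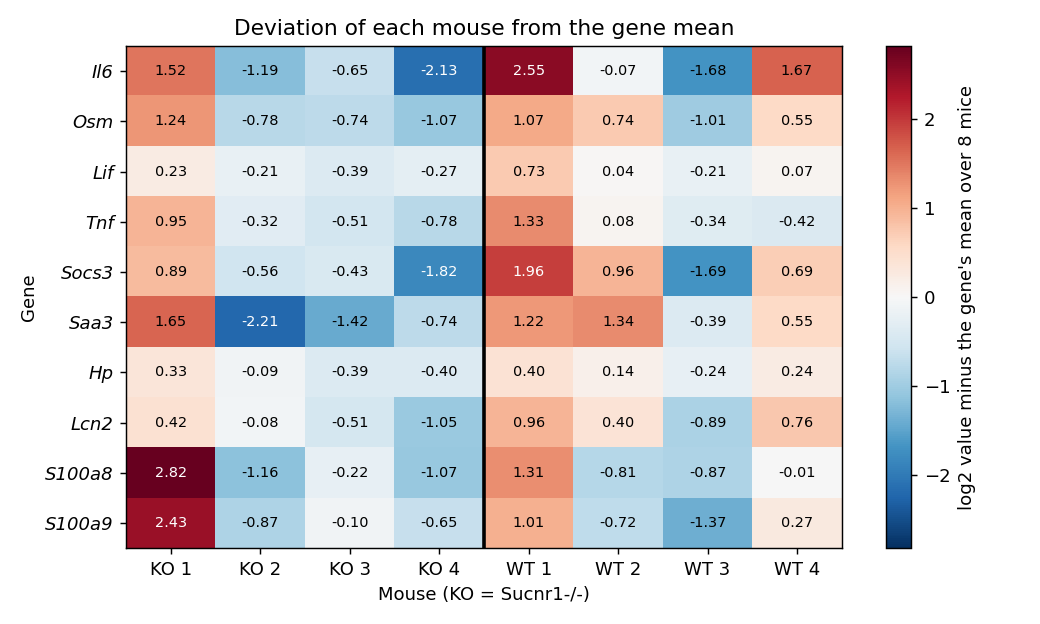
Log2 deviation of each mouse (columns; KO, *Sucnr1*-/-) from the mean over 8 mice of each of the 10 members (rows), in colour and as a number in the cell; red is above the mean. Both columns of replicate 1 are red for every gene, and 3 *Sucnr1*-/- mice and WT replicate 3 are blue for every gene.

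Genes most like *Il6* over the 8 mice were found among 11426 other genes with a mean of at least 6. They were *Zfp281*, a zinc finger factor (r 0.985), *Adamts4* and *Adamts1*, secreted metalloproteases (0.980 and 0.979), *Ptx3*, a long pentraxin (0.977), and *Itpkc*, an inositol trisphosphate kinase (0.976). *Ptx3* was at 8.996, 5.90, 7.29 and 5.70 in *Sucnr1*-/- mice, against 9.99, 7.70, 5.23 and 8.89 in WT mice. Like *Il6*, it was highest in WT replicate 1 and among the lowest in *Sucnr1*-/- replicate 4 and WT replicate 3. Of the members, *Lcn2* (0.931), *Socs3* (0.929), *Osm* (0.910) and *Hp* (0.908) came next, at ranks 64, 71, 123 and 139. The genes most like *S100a8* were *Cxcr2* (0.995), *Acod1*, which makes itaconate in activated myeloid cells (0.990), *Retnlg*, a neutrophil protein (0.983), *Hdc*, which makes histamine (0.982), and *Dnajb1*, a heat shock protein (0.978), and *S100a9* ranked at 7. These correlations are descriptions over 8 arrays and carry no test.

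Among the receptors, differences ran from −0.42 to 0.19. They ran from −1.23 to −0.32 for the member ligands *Il6*, *Osm*, *Lif* and *Tnf*, none of which passed the test. For 6 other IL-6 family ligands they ran from −0.31 to 0.07. *Il6ra*, the IL-6 receptor chain, averaged 10.45 ± 0.13 in *Sucnr1*-/- mice and 10.38 ± 0.25 in WT mice (SD, n = 4 each), a difference of 0.06 (SE 0.13). *Il6st*, which encodes gp130, averaged 11.63 ± 0.09 in *Sucnr1*-/- mice and 11.75 ± 0.10 in WT mice, a difference of −0.12 (SE 0.07). *Osmr*, the oncostatin M receptor chain, was at 11.14, 10.63, 10.67 and 10.08 in *Sucnr1*-/- mice, against 11.50, 11.08, 10.20 and 10.99 in WT mice. WT replicate 1 was again highest and *Sucnr1*-/- replicate 4 lowest, with a difference of −0.31 (SE 0.29). *Lifr* differed by 0.15 (SE 0.19) and *Cntfr*, the receptor chain for ciliary neurotrophic factor, by 0.19 (SE 0.24). *Il27ra*, the interleukin 27 receptor chain, differed by −0.42 (SE 0.18; adjusted p = 0.719 in limma), and *Il31ra* by −0.16 (SE 0.07; adjusted p = 0.712), with a mean level of 5.17 ± 0.05 in *Sucnr1*-/- mice and 5.33 ± 0.09 in WT mice and no overlap. Both means of *Il31ra* were under the olfactory receptor level of 5.42, where a difference in expression cannot be told from background. *Il27ra* and *Il31ra* passed an unadjusted p of 0.05, and they were 2 of 7 receptors measured, against 6.82% of all genes. The TNF receptors *Tnfrsf1a* and *Tnfrsf1b* differed by −0.18 (SE 0.15) and −0.32 (SE 0.15).

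Behind the receptors, 14 of 20 JAK-STAT signal transducers and inhibitors had a lower mean in *Sucnr1*-/- mice, with a median of −0.10, and none passed an unadjusted p of 0.05. *Jak1*, a kinase bound to gp130, differed by −0.19 (SE 0.09), *Ptpn6*, a phosphatase of blood cells, by −0.39 (SE 0.22), and *Stat3* by −0.12 (SE 0.16). WT replicate 1 was highest for 12 of the 20. Among 18 genes known to be induced by STAT3, 13 were lower on average in *Sucnr1*-/- mice and the median was −0.19, with none past an unadjusted p of 0.05. *Pim1*, a kinase, differed by −0.54 (SE 0.38) and *Vegfa*, a growth factor for vessels, by 0.30 (SE 0.20). Here too WT replicate 1 was highest, for 13 of 18 genes, and without it the median was 0.07. *Junb*, *Myc* and *Ier3* of this list are also immediate early genes. Of 6 other IL-6 family ligands, 3 were higher and 3 lower on average, with a median of 0.02. *Clcf1*, a ligand of the ciliary neurotrophic factor receptor, differed by −0.31 (SE 0.30) and *Il27* by 0.07 (SE 0.08).

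Around *Tnf*, 22 of 24 receptors and signalling genes had a lower mean in *Sucnr1*-/- mice, with a median of −0.15. In limma, 1 passed an unadjusted p of 0.05, against 6.82% of all genes. That gene was *Adam17*, which encodes the protease that sheds TNF and the IL-6 receptor, at −0.33 (SE 0.12; adjusted p = 0.712 in limma). WT replicate 1 was highest for 17 of the 24, and without it 16 were lower and the median was −0.06. Among 13 genes listed around the induction of IL-6 and the control of *Il6* RNA, 10 had a lower mean in *Sucnr1*-/- mice. Their median was −0.20, and 0.04 without WT replicate 1. The list also holds *Il1rn*, the gene of the interleukin 1 receptor antagonist, at −0.55 (SE 0.49), and *Zfp36*, which is also an immediate early gene. *Il1a*, the interleukin 1 alpha gene, differed by −0.998 (SE 0.70), *Tlr3* by −0.16 (SE 0.10) and *Rc3h1*, the gene of an RNA-binding protein that limits *Il6* RNA, by 0.02 (SE 0.07).

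Of 29 other acute-phase genes, the mean was lower in *Sucnr1*-/- mice for 25 and higher for 4, with a median of −0.35. In limma, 1 passed an unadjusted p of 0.05, against 6.82% of all genes. The 1 past an unadjusted p of 0.05 was higher: *Orm3*, an orosomucoid gene, at 8.51, 8.97, 9.20 and 8.50 in *Sucnr1*-/- mice, against 7.91, 7.74, 8.25 and 8.55 in WT mice. The groups overlapped through WT replicate 4, and the difference was 0.68 (SE 0.22, adjusted p = 0.712 in limma). *Orm3* shares sequence with other orosomucoid genes, and whether its probes also read these was not tested. *Timp1*, an inhibitor of metalloproteases, was at 8.90, 8.26, 7.83 and 6.61 in *Sucnr1*-/- mice, against 10.66, 8.74, 7.66 and 8.61 in WT mice, a difference of −1.02 (SE 0.66). *Mt2*, a metallothionein gene and the brightest of the list, differed by −0.06 (SE 0.06).

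WT replicate 4 was highest for 18 of these 29 genes, and without it 13 were lower and the median was 0.02. It also stood apart in liver markers. *Alb*, the serum albumin gene, was at 11.62, 9.16, 9.67 and 9.93 in *Sucnr1*-/- mice, against 8.38, 11.28, 9.33 and 12.85 in WT mice. *Fgb*, the gene of the fibrinogen beta chain and one of the 29, was at 7.53, 5.09, 5.65 and 5.89 in *Sucnr1*-/- mice, against 5.003, 6.67, 5.32 and 10.35 in WT mice. Both genes were highest in WT replicate 4. The mean level of 5 liver markers ran from 7.92 to 10.12 in *Sucnr1*-/- mice and from 7.84 to 11.32 in WT mice, and 4 of the 5 were highest in WT replicate 4. The part of liver RNA in the acute-phase list was not tested. Among the members, WT replicate 4 held no highest value but was among the 4 highest mice for 9 of 10. *Saa3*, *Hp* and *Lcn2* were at 9.37, 12.51 and 10.67 in it. The liver marker score was 2.32 in WT replicate 4 and next highest in *Sucnr1*-/- replicate 1, at 1.12. Without both mice, 10 of 10 members had a lower mean in *Sucnr1*-/- mice, with a median of −0.80. Leaving out *Sucnr1*-/- replicate 1 alone gave nearly the same, 10 of 10 lower and a median of −0.79. Leaving out WT replicate 4 alone gave 8 of 10 lower and a median of −0.49. The part of liver RNA in the members' values was not tested.

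The other members of the S100 family varied less between mice than *S100a8* and *S100a9*. Of 14 genes on this list, which also holds *S100pbp*, the gene of an S100P-binding protein, 10 had a higher mean in *Sucnr1*-/- mice with a median of 0.07. *S100a4*, a gene of motile and fibroblast-like cells, passed an unadjusted p of 0.05 at −0.34 (SE 0.13). So did *S100a3*, whose means of 4.42 in *Sucnr1*-/- mice and 4.25 in WT mice were under the olfactory receptor level of 5.42, and neither passed after adjustment. Of all genes, 6.82% passed that unadjusted p in limma. In all, 5 of the 14 were under that level in every mouse. *S100a11*, the brightest of the list, differed by 0.07 (SE 0.06). None of the 14 reached the 90th percentile of genes in within-genotype SD, against percentiles of 99.8 for *S100a8* and 99.6 for *S100a9*. Receptors and partners of the secreted proteins divided evenly, 5 of 10 higher and 5 lower, with a median of −0.07. *Cd33*, a receptor of myeloid cells that binds S100A9 in humans, differed by 0.31 (SE 0.14), *Slc22a17*, a receptor for lipocalin 2, by 0.19 (SE 0.10), and *Ly96*, a partner of the Toll-like receptor TLR4, by 0.00 (SE 0.14).

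Other cells of the tissue were read from their markers. Of 19 macrophage markers, 17 had a lower mean in *Sucnr1*-/- mice, with a median of −0.24. In limma, 6 passed an unadjusted p of 0.05 as lower and 1 as higher, against 6.82% of all genes. Groups did not overlap for 4 lower markers and 1 higher marker, against 4.24% of all genes. The mean level of the 19 was 10.12 to 10.33 in *Sucnr1*-/- mice and 10.39 to 10.74 in WT mice, without overlap. The macrophage gene *Adgre1*, which encodes F4/80, differed by −0.50 (SE 0.15) without overlap. All 6 monocyte markers had a lower mean in *Sucnr1*-/- mice (median −0.41), as had all 7 B cell markers (−0.82) and all 7 T cell markers (−0.40), whereas 10 of 11 adipocyte markers had a higher mean (0.08). No monocyte, B cell or T cell marker had groups without overlap. Stromal progenitor, endothelial and mesothelial cells had 8 measured markers each. The mean was lower in *Sucnr1*-/- mice for 6 stromal progenitor (median −0.10), 5 endothelial (−0.03) and 7 mesothelial markers (−0.19). In limma, 0 of these passed an unadjusted p of 0.05. The B cell score was 0.23, −0.95, −0.88 and 0.04 in *Sucnr1*-/- mice, against 1.55, −0.25, 0.67 and −0.40 in WT mice. The T cell score was 0.45, −0.51, −0.51 and −0.24 in *Sucnr1*-/- mice, against 0.65, −0.32, 0.68 and −0.19 in WT mice. In limma, 1 of 7 markers of each passed an unadjusted p of 0.05. Mast cells, which can release TNF and IL-6, had 7 of 8 markers with a lower mean in *Sucnr1*-/- mice (median −0.33). Of the 8, 5 passed an unadjusted p of 0.05 in limma, against 6.82% of all genes. Groups did not overlap for 5 of the 8, against 4.24% of all genes. The mast cell proteases *Tpsb2* and *Cpa3* differed by −0.73 (SE 0.12) and −0.74 (SE 0.16), and no marker passed after adjustment. The mean level of the 8 was 6.38 to 6.53 in *Sucnr1*-/- mice and 6.66 to 7.01 in WT mice, and 2 of the 8 were under 5.42 in every mouse. The part of these cells in the differences of the members was not tested.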

How the data were processed

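Total RNA from the epididymal fat of 8 mice was hybridised to Affymetrix Mouse Gene 1.1 ST arrays. The authors deposited log2 expression values after RMA (background correction, quantile normalisation and summary per probe set). The RMA version and scan dates were not given in the sources used here, so batches were not tested. RMA makes array distributions alike and draws extreme values together.

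Of 35556 probe sets, 21218 named exactly 1 gene, 1881 named several and 12457 were unnamed. The brightest probe set stood for a gene, which gave 18820 genes. R 4.3.3 and limma 3.58.1 served to compare genotypes (linear model with moderated variances, no covariate, Benjamini-Hochberg over all genes), which was tested on simulated data. Exact permutation tests over mice went through every arrangement in Python 3.11.15. Ranks and the adjustment over relations used scipy 1.17.1, and figures matplotlib 3.10.9. The genotypes were littermates, but which mice shared a litter or cage was not given. The p-values of the genotype comparison set the difference against the spread between these mice within a genotype. The number of arrays limits the precision.

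Members, lists and tests were chosen with earlier results of these data known, the lists by hand from textbook knowledge. The text names all members, the receptors, and in each other list of the pathway the genes of smallest p or highest level; the marker genes, Fgb, and the values of each mouse for Ptx3, Cxcr2, Osmr, Orm3 and Timp1 were picked after they were seen. Alternatives varied the probe set, the filter on dim genes, the scaling, the test and the mice left out. Centring over named genes, leaving out WT replicate 4 with Sucnr1-/- replicate 1 or WT replicate 3 with Sucnr1-/- replicate 4, and the list medians under each alternative were added after seeing the data.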

Additional observations from a re-analysis of the deposited data

Results flagged for a closer look

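*Osm* in Sucnr1-/- replicate 1, at 8.20 on the log2 scale, lay far from the other 3 mice of its genotype, of which the nearest was at 6.22. The gap was 0.854 of the range of the 4 mice, above Dixon's critical value for 4 samples. Of 22 groups of 4 mice examined for the members and *Sucnr1*, 1 was flagged, and chance flags about 1 group in 20.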

How the results depend on the processing

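No gene passed an adjusted p of 0.05 in limma or under any alternative run, and the methods' test of group means, gene by gene, passed 1247 genes unadjusted and 0 adjusted. Genes higher in Sucnr1-/- mice at an unadjusted p of 0.05 (652) numbered 369 without the dimmest 40% of genes, 355 with median centring and 1352 with centring over named genes. Genes lower (632) numbered 979 with median centring, 330 with centring over named genes, 973 without WT replicate 4 and Sucnr1-/- replicate 1 together, 353 without Sucnr1-/- replicate 4 and WT replicate 3 together, and 368 to 885 with 1 mouse left out. With a replicate block 1096 were lower and 809 higher. Mice of 1 number deviated together at r of 0.454, 0.141, 0.106 and 0.0148, and only replicates 1 and 3 correlated best with their own number, so the numbers were not taken as pairs.

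The sign of *Tnf* turned without WT replicate 1, to 0.061 (−0.70 to 0.061 with 1 mouse left out). That of *S100a8* turned with 1 mouse left out (−0.72 to 0.66), without both mice numbered 1 (−0.25) and without WT replicate 4 and Sucnr1-/- replicate 1 together (−0.69). That of *S100a9* turned likewise with 1 mouse left out (−0.34 to 0.81) and without that pair (−0.18). The cause was not tested. The signs of the other 7 members turned under no alternative run. Low signal limits *Il6* and *Lif*, near the level of olfactory receptor genes.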
